A study of Homo sapiens with 4 samples.

Results

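The tropomyosin genes TPM1, TPM2, TPM3 and TPM4 were followed through RNA-seq of U87MG cells, a human glioblastoma cell line, to ask how the choice between their alternative exons differed after transfection with a decoy against the splicing factors RBFOX1 and RBFOX2. All events that carried 1 of these 4 gene symbols in the 5 deposited event tables were taken, which gave 72 of 121269 events. They comprised 23 of the 27459 mutually exclusive exon events, 46 of the 84930 skipped exon events, 2 of the 4387 alternative 3′ splice sites, 1 of the 3203 alternative 5′ splice sites and 0 of the 1290 retained introns. TPM1 had 20 events, TPM2 had 4, TPM3 had 17 and TPM4 had 31. Many of them share exons, so the 72 events describe 44 distinct exons, exon pairs or splice site regions.

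Both groups were U87MG cells transfected with an RNA oligonucleotide at 2.5 µM. RBFOXi (2 libraries) is a single-stranded RNA with 2′-O-methyl riboses that holds repeats of the RBFOX motif, and SCRM (2 libraries) is the scrambled control. The label of RBFOXi replicate 1 names the dye Cy5, and no dye is named for the other 3 libraries. The study describes 2 independent biological replicates per oligonucleotide. All libraries came from 1 cell line, which limits the result to these cells.

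Tropomyosins are coiled-coil proteins that lie end to end along the groove of the actin filament and set which myosins, severing factors and crosslinkers can reach it. Across the family, isoforms arise through alternative first exons, a choice between mutually exclusive internal exons and alternative last exons. Not every gene uses all of these. The internal choice alters a stretch of the coiled coil without altering the length of the protein. RBFOX proteins bind UGCAUG in introns. Binding downstream of an alternative exon is known to favour its inclusion, and binding upstream is known to oppose it.

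The internal choice at exon 6 is the one that TPM1, TPM2 and TPM3 have in common, and the sequences are shown because they tell which exon of each gene corresponds to which. All 7 exons are 76 nt long and coding in the GENCODE annotation, and some transcripts that hold a TPM1 exon 6 leave part of it untranslated. "Upstream" and "downstream" refer to the order in the transcript. Sequences were read 5′ to 3′ on the strand of the gene from GRCh37, the build of the event tables (hg19). Capitals mark the 11 positions at which the 3 upstream exons share 1 base and the 3 downstream exons of the same genes share another, and the same positions are in capitals in TPM4.
TPM1 upstream exon 6, chr15:63353397-63353472, plus strand: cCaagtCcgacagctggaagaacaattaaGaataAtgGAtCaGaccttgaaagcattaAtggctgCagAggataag
TPM2 upstream exon 6, chr9:35685061-35685136, minus strand: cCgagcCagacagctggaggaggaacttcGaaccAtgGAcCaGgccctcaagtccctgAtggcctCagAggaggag
TPM3 upstream exon 6, chr1:154144505-154144580, minus strand: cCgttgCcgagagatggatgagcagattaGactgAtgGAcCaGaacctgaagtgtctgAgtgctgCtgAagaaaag
TPM1 downstream exon 6, chr15:63353912-63353987, plus strand: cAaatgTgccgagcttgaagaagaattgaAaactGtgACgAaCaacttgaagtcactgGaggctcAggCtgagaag
TPM2 downstream exon 6, chr9:35684729-35684804, minus strand: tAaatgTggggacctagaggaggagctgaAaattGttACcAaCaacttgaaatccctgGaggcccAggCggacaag
TPM3 downstream exon, chr1:154143889-154143964, minus strand: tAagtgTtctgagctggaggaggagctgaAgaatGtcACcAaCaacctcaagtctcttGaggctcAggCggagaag
TPM4 exon 6, chr19:16199855-16199930, plus strand: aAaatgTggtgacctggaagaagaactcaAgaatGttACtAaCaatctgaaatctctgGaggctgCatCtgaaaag

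Exons at the same place in different genes were more alike than the pair within a gene. The TPM1 upstream exon shares 68.4% of its bases with the TPM2 upstream exon and 64.5% with that of TPM3, but 56.6% with the downstream exon of TPM1 itself. The downstream exons share 77.6% (TPM1 and TPM2), 76.3% (TPM1 and TPM3) and 78.9% (TPM2 and TPM3). The event tables hold 1 exon of this length for TPM4. It carries the base of the downstream exons at 10 of the 11 marked positions and that of the upstream exons at 1, and it is 73.7% identical to the TPM1 downstream exon and 53.9% to the TPM1 upstream exon.

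**Figure D1:**
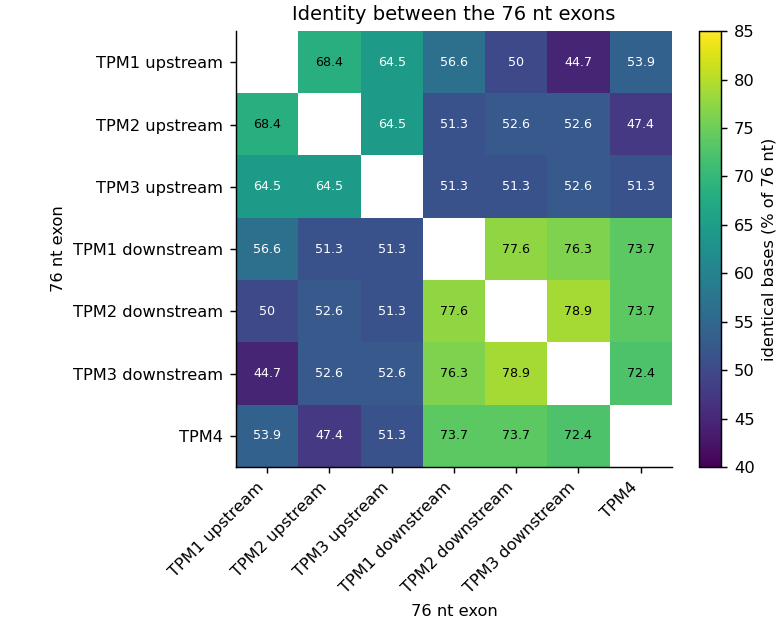
Identity between the 76 nt exons of the tropomyosin genes, as the percentage of identical bases without gaps (colour scale from 40 to 85%). Upstream exons form 1 block and downstream exons another, and the single TPM4 exon is 72.4 to 73.7% identical to the downstream exons.

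TPM1 also carried UGCAUG next to this pair, and the 100 nt of intron that end at each exon are shown for this reason, with the motif (TGCATG in the genome) in capitals.
Intron before the upstream exon 6 of TPM1, chr15:63353297-63353396, plus strand: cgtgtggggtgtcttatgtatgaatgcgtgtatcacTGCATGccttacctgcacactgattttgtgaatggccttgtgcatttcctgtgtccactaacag
Intron before exon 7 of TPM1, chr15:63354314-63354413, plus strand: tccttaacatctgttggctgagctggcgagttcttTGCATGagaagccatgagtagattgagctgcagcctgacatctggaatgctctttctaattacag

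The first copy begins 64 nt before the upstream exon 6, in the 258 nt intron after exon 5. The second begins 65 nt before exon 7, in the 426 nt intron that follows the downstream exon 6. The 439 nt intron between the 2 exons of the pair holds no copy. Searched on the strand of the gene only, the motif lay within 300 nt upstream of 4 of 26 distinct tropomyosin exons (15.4%) and within 300 nt downstream of 1 (3.85%). The other exons with a copy were those of 126 nt, 134 nt and 63 nt in TPM4, and no copy lay within 500 nt of the exon 6 pairs of TPM2 and TPM3 or of the 126 nt pair of TPM1. Over all 20683 distinct pairs of mutually exclusive exons tested, 8.02% held UGCAUG within 300 nt upstream of the upstream exon and 2.56% within 100 nt. Among the 259 pairs of equal length the share was 16.6% within 300 nt. Upstream of the downstream exon of all tested pairs it was 8.52% within 300 nt. Within 300 nt downstream, the shares were 8.33% for the upstream and 8.18% for the downstream exon of these pairs. Over the 30617 distinct skipped exons tested they were 8.16% upstream and 8.36% downstream. A match of letters is a description and not evidence of binding.

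**Figure D2:**
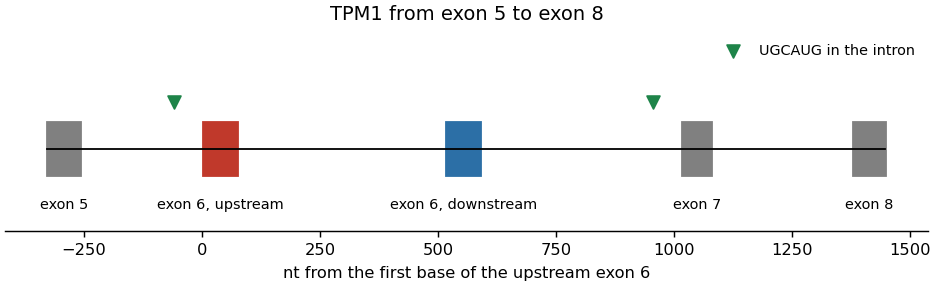
TPM1 from exon 5 to exon 8, to scale, in nt from the first base of the upstream exon 6, with exons as boxes and introns as a line. Triangles mark the 2 copies of UGCAUG, which begin 64 nt before the upstream exon 6 and 65 nt before exon 7.

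Levels of the 4 genes differed widely. A level is given here as counts per 1000 nt of effective length and per 1000000 counts over the skipped exon events, as the median over the exons of a gene. TPM4 stood at 1056 and 1226 with RBFOXi and at 580 and 1319 with SCRM, and TPM3 at 727 and 618 against 500 and 678. TPM1 stood at 198 and 315 with RBFOXi against 213 and 277 with SCRM. TPM2, the weakest, stood at 10.5 and 15.5 against 25.4 and 13.2, near the median of 15.5 over the 11862 genes with a skipped exon event. The order TPM4, TPM3, TPM1, TPM2 held in every library. TPM3 and TPM4 came within the spread of the libraries of each other, and within each gene the 2 groups overlapped. In bulk RNA, fewer cells that use a gene and less of its RNA per cell cannot be told apart. SCRM replicate 1 had the fewest counts (114415530 over the skipped exon events, against 124782728 to 136097319 in the other libraries, with a read counted once in each event it fits) and the lowest level of TPM3 and TPM4. Of the markers of cells of this kind, VIM and CD44 lay among the top genes by level, NES near the middle, and GFAP, OLIG2, S100B and SOX2 had no skipped exon event. Of the muscle, neuron and epithelium markers, SNAP25 lay near the middle, CNN1, DES, SYT1 and KRT8 were low, and the other 7 had no such event.

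The choice between forms was measured as the proportion spliced in (PSI), the counts of the first form divided by its effective length over the sum of both forms. For mutually exclusive exons the first form holds the upstream exon, so that PSI is the share of the upstream exon. Delta PSI is the mean over the RBFOXi libraries minus the mean over the SCRM libraries. The log2 odds of inclusion were tested with limma over all events of a type, and an event was called at an adjusted p-value under 0.05 (Benjamini-Hochberg) and a delta PSI of 0.1 or more in either direction. Of the 72 events, 43 had enough counts to be tested. No tropomyosin event was called.

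At TPM1 exon 6 the upstream exon took a larger share with RBFOXi than with SCRM. In the event that ends on exon 7, PSI was 0.940 and 0.935 in the RBFOXi libraries and 0.785 and 0.861 in the SCRM libraries. Both RBFOXi libraries lay above both SCRM libraries, and the exact 95% binomial intervals, which cover counting error only, ran from 0.930 to 0.949 and from 0.927 to 0.943 with RBFOXi and from 0.769 to 0.800 and from 0.849 to 0.872 with SCRM. Reads for the downstream exon numbered 154 and 244 beside 2403 and 3525 for the upstream exon with RBFOXi, and 616 and 482 beside 2244 and 2980 with SCRM. The downstream exon thus made up 6.02% and 6.47% of the pair with RBFOXi and 21.5% and 13.9% with SCRM. Mean PSI was 0.938 ± 0.00319 (SD, n = 2) against 0.823 ± 0.0539 (SD, n = 2), a delta PSI of 0.115.

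The log2 odds of the upstream exon differed by 1.66 ± 0.25 (SE) in the limma fit, higher with RBFOXi, with an unadjusted p-value of 8.96e-05 and an adjusted p-value of 0.235, which does not pass the threshold. It had the 8th smallest p-value of the 26176 mutually exclusive exon events tested, where the smallest adjusted p-value of all was 0.0551. Of these 26176 events 0 (0%) were called, 395 (1.51%) had an unadjusted p-value under 0.05, and 179 (0.684%) combined that with a delta PSI of 0.1 or more in either direction, as did 2 of the 23 tropomyosin events, both of this pair. Over the alternative settings the log2 odds change ranged from 1.28 to 2.04, always in the same direction. The highest adjusted p-value was 0.354, in limma with a pseudocount of 0.1. The lowest, 7.53e-83, came from Fisher's exact test on summed counts, which ignores the spread between replicates. At this event RBFOXi replicate 1 had the fewest counts (2557). SCRM replicate 1, with 2860, had the lowest PSI of the 4 libraries and the fewest counts over all mutually exclusive exon events. The part of its depth in the result was not tested. Without it the change was 1.28 with a delta PSI of 0.0767 and an adjusted p-value of 0.0155, while without SCRM replicate 2 it was 2.04 with a delta PSI of 0.153 and an adjusted p-value of 0.000193. Each of these fits leaves 1 SCRM library, which is assumed to vary like the RBFOXi pair, so their p-values are not stronger evidence than that of the full fit.

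A second event covers the same pair with exon 8 as the next exon and rests on a subset of the same reads. Its PSI was 0.945 and 0.921 with RBFOXi against 0.734 and 0.813 with SCRM, again without overlap. Delta PSI was 0.159 and the log2 odds change 2.02 ± 0.29 (SE), with an unadjusted p-value of 6.58e-05 and an adjusted p-value of 0.235 in limma. Reads that joined exon 5 to exon 7 without an exon 6 were few, and both skipped exon events lay between 0.984 and 1 in every library. Reads that join the 2 exons 6 to each other are not counted by these events, and 4 annotated transcripts hold both.

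**Figure D3:**
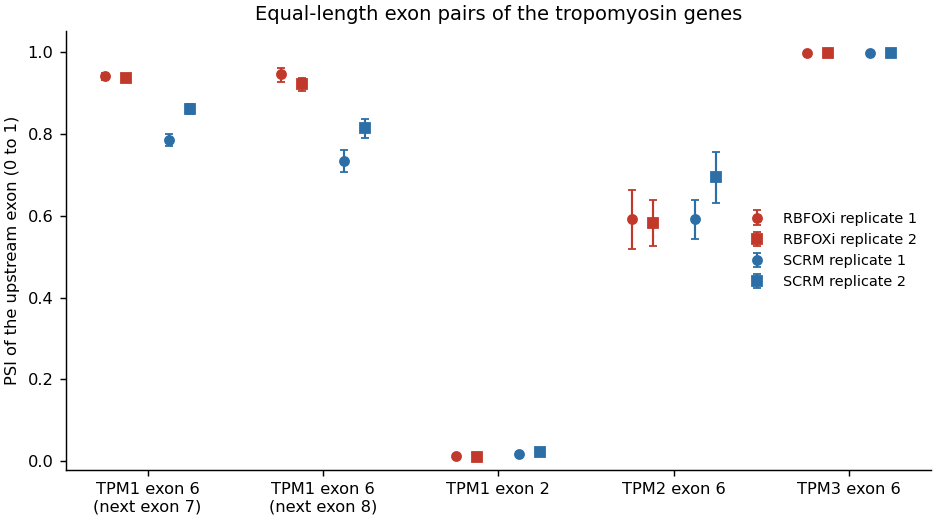
PSI of the upstream exon (0 to 1) in each library for the equal-length exon pairs, with RBFOXi in red and SCRM in blue, circles for replicate 1 and squares for replicate 2, and exact 95% binomial intervals as bars. For TPM1 exon 6 the RBFOXi libraries sit between 0.921 and 0.945 and the SCRM libraries between 0.734 and 0.861, while the RBFOXi values of TPM2 sit at 0.583 and 0.592 beside SCRM values of 0.591 and 0.695.

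The remaining mutually exclusive events around TPM1 exon 6 set an exon 6 against exon 7, or exon 7 against exon 8, although GENCODE places these exons together in most transcripts. They share reads with the pair and are not further evidence. The downstream exon 6 relative to exon 7 had a PSI of 0.0281 and 0.0403 with RBFOXi against 0.127 and 0.0904 with SCRM, a log2 odds change of -1.78 ± 0.28 (SE, unadjusted p = 0.000108, adjusted p = 0.235 in limma). The upstream exon 6 relative to exon 7 had a PSI of 0.331 and 0.329 against 0.287 and 0.302, a log2 odds change of 0.24 (unadjusted p = 0.177 in limma). Both events set the counts of the pair that ends on exon 8 against the same exon 7 counts. Their changes (0.24 and -1.78) therefore differ by the 2.02 already given for that pair. As the downstream exon was the minor form, the larger size of its change cannot tell which exon responded, and this was not tested. The events of exon 7 against exon 8 had a log2 odds change of 0.32 where the upstream exon 6 came before them and -1.10 where the downstream exon 6 did, with unadjusted p-values of 0.0876 and 0.000842 in limma.

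TPM1 has a further pair of equal length at exon 2, 126 nt each, at chr15:63335905-63336030 and chr15:63336226-63336351. The downstream exon of this pair dominated in all libraries. PSI of the upstream exon was 0.0125 and 0.0118 with RBFOXi against 0.0188 and 0.0221 with SCRM, from 6063 to 12112 counts a library. The groups did not overlap, but the difference was small, a delta PSI of -0.00828 and a log2 odds change of -0.75 ± 0.22 (SE, unadjusted p = 0.00681, adjusted p = 1 in limma). The skipped exon event of the upstream exon 2, which shares reads with the pair, had a PSI of 0.00849 and 0.00736 against 0.0138 and 0.0157 (unadjusted p = 0.025, adjusted p = 1 in limma). The 3 mutually exclusive events of other genes with equal-length exons whose PSI lay closest to this pair over the 4 libraries, among 353 compared, were in ZC3H18, which encodes a zinc finger protein, RAB1A, a GTPase of membrane traffic, and MAPK9, a stress-activated kinase, at Euclidean distances of 0.0120, 0.0131 and 0.0145. Their groups had absolute delta PSI of 0.00291 or less, so the likeness is one of level.

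All 7 mutually exclusive events of TPM1 separated the groups, as did 3 of TPM3 and 4 of TPM4, together 14 of 23 (60.9%), where 24.4% of all such events tested did. Of the 23, 5 (21.7%) had an unadjusted p-value under 0.05, beside 1.51% of all. These 5 were all in TPM1, 2 with a higher and 3 with a lower share of the first exon of the event. Among the 3 are the downstream exon 6 against exon 7, and exon 7 against exon 8 after the downstream exon 6. Both count reads of the downstream exon 6 in their first form, so they go the same way as the exon 6 pair. The last is the pair of exon 2. Because several of these events count the same reads, neither share is a count of independent changes. The median absolute delta PSI of the 23 events was 0.0133, and that of all 26176 was 0.0192.

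**Figure D4:**
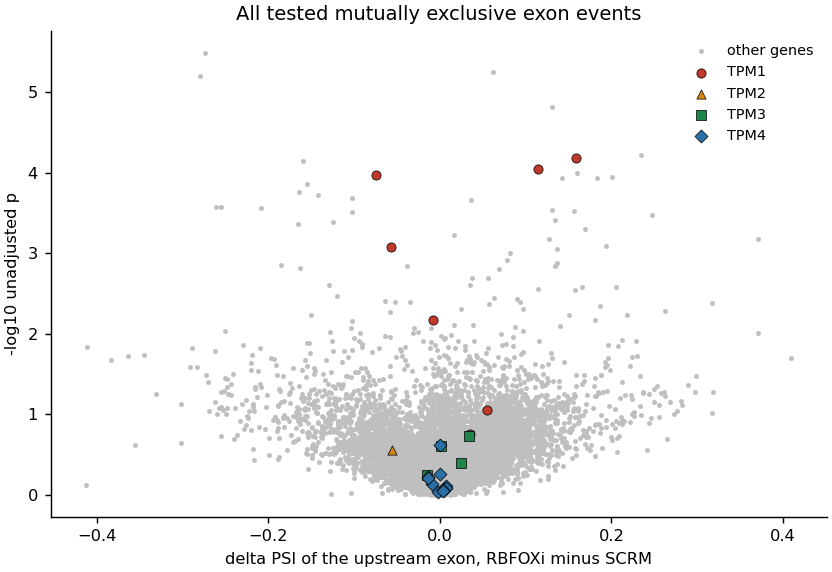
All 26176 tested mutually exclusive exon events by delta PSI of the upstream exon (RBFOXi minus SCRM) and -log10 of the unadjusted limma p-value, with other genes in grey and the tropomyosin genes in colour. The 2 TPM1 exon 6 events lie at a delta PSI of 0.115 and 0.159 near the top of the plot, and the events of TPM2, TPM3 and TPM4 lie within the mass of points at the bottom.

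TPM1 exon 9, near the end of the gene, was the other place with a sizeable difference. An alternative 5′ splice site extends the 79 nt exon at chr15:63356263-63356341 by 48 nt, to chr15:63356389, which is exon 9 of TPM1-202. The longer form had a PSI of 0.657 and 0.383 with RBFOXi and of 0.184 and 0.285 with SCRM. The RBFOXi libraries lay above the SCRM libraries but differed from each other by nearly as much as from the controls, with 76 to 84 counts a library and exact 95% binomial intervals of 0.528 to 0.773, 0.283 to 0.495, 0.117 to 0.272 and 0.196 to 0.391 in the same order. Delta PSI was 0.285 and the log2 odds change 1.83 ± 0.61 (SE), with an unadjusted p-value of 0.0158 and an adjusted p-value of 0.995 in limma. Of the 2281 alternative 5′ splice sites tested, 0 (0%) were called, 82 (3.59%) had an unadjusted p-value under 0.05, 30.1% separated the groups, and 12 had a delta PSI at least as large in either direction. Without RBFOXi replicate 1, the library with the highest value and the one labelled Cy5, delta PSI was 0.149 instead of 0.285.

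Inclusion of exon 9 as a whole overlapped between the groups. The 79 nt form had a PSI of 0.444 and 0.488 with RBFOXi against 0.445 and 0.613 with SCRM (unadjusted p = 0.402 in limma), and the 127 nt form 0.428 and 0.394 against 0.309 and 0.491 (unadjusted p = 0.845 in limma). The downstream exon 2 was included at 0.998 or more in every library in the event with the most counts and at 0.963 to 0.978 in its other event. Exon 7 stood at 0.998 or more in its 2 deeper events, and its remaining event held only 1 to 10 counts a library. Exon 8 of TPM1, one of the exons with the most counts, was left untested because almost no read skipped it.

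TPM2, the gene of beta-tropomyosin, showed an open choice at exon 6 with no difference past the spread. The upstream exon had a PSI of 0.592 and 0.583 with RBFOXi and of 0.591 and 0.695 with SCRM, from 191 to 418 counts a library. SCRM replicate 2 was high, and SCRM replicate 1 lay between the RBFOXi libraries. Delta PSI was -0.0557 and the log2 odds change -0.35 (unadjusted p = 0.28 in limma). The value rested on the SCRM libraries, with a delta PSI of -0.00343 without SCRM replicate 2 and -0.108 without SCRM replicate 1. Whether TPM1 and TPM2 differ in their change was not tested. The 3 skipped exon events of TPM2, at both exons 6 and at exon 3, lay between 0.985 and 1 and could not be tested for want of skipping counts.

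TPM3 used the upstream exon 6 almost alone. The downstream exon made up 0.205% and 0.207% of the pair with RBFOXi and 0.364% and 0.253% with SCRM, from 15 to 20 reads a library beside 4923 to 7889 for the upstream exon. The log2 odds change was 0.55 with an unadjusted p-value of 0.249 in limma. The other mutually exclusive events of TPM3 set exon 3 against exon 4 or exon 5, or the upstream exon 6 against exon 7, and these exons mostly occur together in the annotated transcripts. Exon 3 against exon 5 had a PSI of 0.756 and 0.766 with RBFOXi against 0.703 and 0.752 with SCRM (unadjusted p = 0.187 in limma), and exon 3 against exon 4 had 0.588 and 0.596 against 0.554 and 0.581 (unadjusted p = 0.409 in limma). In both, SCRM replicate 1 was lowest.

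Exon 3 of TPM3 was included at 0.991 to 0.997 in all libraries. A 79 nt exon at chr1:154141781-154141859, an exon of 4 annotated transcripts, was included at 0.0124 and 0.0157 with RBFOXi and 0.00918 and 0.0128 with SCRM (unadjusted p = 0.247 in limma). Both alternative 3′ splice sites of TPM3 lay near 0 or 1. The longer form of the last exon had a PSI of at most 0.00134 (unadjusted p = 0.603 in limma). The annotated 70 nt exon 8 had a PSI of 0.991 or 0.992 (unadjusted p = 0.657 in limma). Its alternative is a form that lacks 4 nt and is not in the annotation. Of the 3009 alternative 3′ splice sites tested, 0 (0%) were called and 100 (3.32%) had an unadjusted p-value under 0.05.

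TPM4, the tropomyosin gene with the highest level here, had the smallest differences of the 4 genes over its mutually exclusive events. Its 11 mutually exclusive events had absolute delta PSI from 7.58e-05 to 0.0134, and 0 had an unadjusted p-value under 0.05. Exon 3 against exon 4, with the most counts (13576 to 37468 a library), had a PSI of 0.400 and 0.363 with RBFOXi against 0.378 and 0.374 with SCRM. GENCODE places these exons together in 23 transcripts, so the value compares reads on 2 consecutive exons more than a choice. All 8 tested skipped exon events of TPM4 had a PSI of at least 0.99 in every library, including exon 3, among those with the most counts, and the single 76 nt exon, at 0.998 or 0.999. Exon 4, also among the deepest, had too few skipping counts for a test in its event with the most counts.

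**Figure D5:**
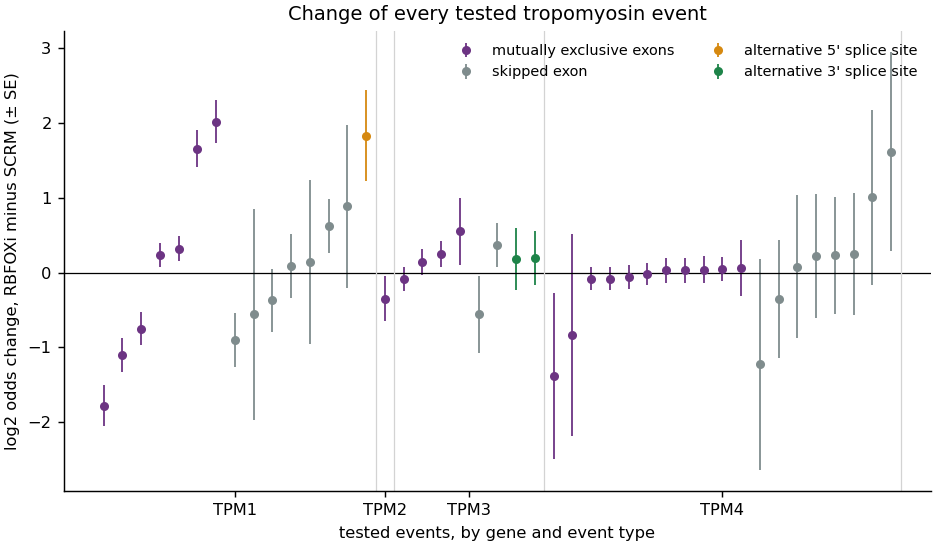
Log2 odds change (RBFOXi minus SCRM) with its SE from limma for the 43 tested tropomyosin events, by gene and event type. The TPM1 exon 6 events reach 1.66 and 2.02 upward and -1.78 downward with short error bars, while the wide bars in TPM4 belong to exons with almost no skipping reads.

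Skipped exons as a class showed little. Of the 46 events 17 were tested, 24 were left out for few skipping counts and 5 for few counts in all. Of the 17, 0 were called, where 27 of 39615 (0.0682%) were called in the whole table, and 1 had an unadjusted p-value under 0.05, where 3.61% did. The 3 events whose groups did not overlap (17.6%) stood beside 30.8% of all skipped exon events tested. In 11 of the 17, PSI was at least 0.99 in all 4 libraries, and in 2 it was at most 0.02. Among the 4 events between these limits, absolute delta PSI was at most 0.0627. The count of 0 was 0 by a quasi-binomial test and by Fisher's exact test as well.

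Genes that act on the same filament were described from a list of 60 actin filament partners, which was chosen with earlier results of these data known. Of 167 skipped exon events tested in 30 of these genes, 2 were called, where 27 of 39615 (0.0682%) were called in the whole table. Of the 167, 19 (11.4%) had an unadjusted p-value under 0.05, beside 3.61% of all skipped exon events tested. These events cover 138 distinct exons and some count the same reads, so the shares are not counts of independent changes. CTTN, the gene of cortactin, which binds branched actin networks, included the 111 nt exon at chr11:70267576-70267686 at a PSI of 0.469 and 0.374 with RBFOXi against 0.799 and 0.767 with SCRM. The delta PSI of -0.361 came with an adjusted p-value of 0.00151 in limma. ACTN1, the gene of an alpha-actinin that crosslinks actin filaments, included the 81 nt exon at chr14:69345706-69345786 at 0.966 and 0.971 against 0.838 and 0.895, a delta PSI of 0.102 (adjusted p = 0.0347 in limma). Neither call held with a pseudocount of 0.1 or with 1 SCRM library left out. With that pseudocount the adjusted p-value in limma was 0.216 for the CTTN event and 0.552 for the ACTN1 event. That fit called 1 of the 39615 skipped exon events in all. Delta PSI of the CTTN event was -0.346 without SCRM replicate 1 and -0.377 without SCRM replicate 2. For the ACTN1 event it was 0.0738 and 0.13 in the same order, and 0.0993 without RBFOXi replicate 2. With PSI as the plain share of counts its delta PSI was 0.0545. Of the 101 mutually exclusive exon events of the list, 0 were called and 10 (9.9%) had an unadjusted p-value under 0.05, beside 1.51% of all.

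A list of 22 factors known to regulate tropomyosin exons, such as PTBP1 and MBNL1, had 0 called events of any type. Of its 63 tested skipped exon events 9 (14.3%) had an unadjusted p-value under 0.05, beside 3.61% of all. The same held for 3 of its 54 mutually exclusive exon events (5.56%, beside 1.51% of all) and 3 of its 14 alternative 3′ splice sites (21.4%, beside 3.32% of all). It held for 0 of its 3 alternative 5′ splice sites and 0 of its 6 retained introns. Its skipped exon events cover 47 distinct exons and its mutually exclusive events 39 distinct pairs, so some count the same reads. This list too was chosen with earlier results of these data known. A quasi-binomial test also called 0. Fisher's exact test on the summed reads called 1, in PTBP1, among 594 events called over all genes and event types. The protein levels and activity of these factors were not measured by these data.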

How the data were processed

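RNA-seq of 4 U87MG libraries (2 RBFOXi, 2 SCRM) was used. The authors used STAR 2.4.2a (hg19) for alignment, and rMATS 3.0.9 with UCSC gene models for the counts of each event. The deposited counts of the inclusion and skipping form, per event and library and without normalization, and the deposited effective lengths were used. The authors' p-values, FDR and inclusion levels (10 columns of per-library values) were not used. Depth per library is given with the levels. A PSI from few counts is imprecise, and reads are not independent molecules.

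Groups followed the sample labels. An event was tested if each library held 5 or more counts, the mean was 20 or more, and each form had 4 or more in all. Counts plus a pseudocount of 0.5 were divided by the effective lengths, and their log2 odds went into limma 3.58.1 under R 4.3.3 (condition only, two-sided, variances moderated along the precision of the events), and p-values were adjusted within each event type over the whole table. With 2 libraries a group, each p-value sets a difference against a spread between libraries that is largely shared with events of like precision. It covers these libraries only. For mutually exclusive exons, the inclusion form was checked against the effective lengths and holds the upstream exon on both strands.

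The test was checked on simulated data. Sequences came from GRCh37, where 30604 of 30617 tested skipped exons had splice site letters at both ends, and exon names from GENCODE 44 lifted to it. Python 3.11.15, numpy 2.4.6, pandas 2.3.3 and matplotlib 3.10.9 were used. Named were each pair of equal length, the 3 further mutually exclusive or skipped groups with most counts per gene, groups with an unadjusted p-value under 0.05 and a delta PSI of 0.1 or more in either direction, and all tested splice site events. Events beyond this rule (the neighbours of TPM1 exon 6, the TPM1 exon 9 and upstream exon 2 skipped exon events and a TPM3 exon of 79 nt) were added after their values were seen. The members and gene lists were chosen with earlier results of these data known. Alternatives covered pseudocount, filter, test, replicate number, delta PSI minimum, PSI definition, 1 event per exon, centring, each library left out and the intron stretch searched.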

Additional observations from a re-analysis of the deposited data

How the results depend on the processing

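With 2 libraries a group, a PSI from under about 100 counts, as at TPM1 exon 9, cannot show small differences. The number of tropomyosin mutually exclusive exon events called was 0 with limma. Fisher's exact test on summed counts, which ignores the spread between replicates, called 2, both of TPM1 exon 6, as did the replicate block. Of all 26176 such events Fisher's test called 199. Calls of fits with a library left out are not given, since each leaves 1 library in a group. A quasi-binomial test, chosen after the files were seen, called 0, as did the other pseudocounts, filters, delta PSI minimums, PSI definition, centring and 1 event per pair. For the event that ends on exon 7, the log2 odds change was 1.65 with Fisher's test, 1.66 with the block (adjusted p = 1.75e-10) and 1.28 to 2.04 with a library left out. For the event that ends on exon 8 it was 1.95, 2.02 (adjusted p = 5.24e-11 with the block) and 1.69 to 2.35. The titles of same-numbered libraries end alike, but nothing says what they share, so the numbers are not known to pair the libraries. The deviations of same-numbered libraries correlated at 0.0881 over mutually exclusive exons and 0.0944 over skipped exons, and over all mutually exclusive exons the block raised the events called from 0 to 77. The block changed no other tropomyosin call.

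Splice site events called were 0, and 1 (TPM1 exon 9) with Fisher's test, which called 78 of all 6324 splice site and retained intron events tested. Skipped exon calls of the tropomyosin genes stayed at 0 in every alternative. Actin partner calls, 2 with limma, were 16 with Fisher's test, 12 with the block and 6 with the quasi-binomial test, not always at the same genes. Regulator calls, 0 with limma, were 1 with Fisher's test. Over all genes and event types limma called 27 events, Fisher's test 594, the block 196 and the quasi-binomial test 73. Of 16 tested events with 223 alternative values, 203 kept direction and call, 11 became calls and 9 turned direction, none of these called. With centring the change of TPM4 exon 3 against exon 4 was -0.05, and with a pseudocount of 0.1 that of TPM4 exon 3 was -0.02. With a library left out these ranged from -0.08 to 0.15 and from -0.44 to 0.60, the longer last exon of TPM3 from -0.50 to 0.89, TPM3 exon 3 from -1.39 to 0.28 and TPM1 downstream exon 2 from -0.66 to 2.45. UGCAUG lay upstream of 2 tropomyosin exons (7.69%) within 100 nt and 6 (23.1%) within 500 nt, and downstream of 0 and 2 (7.69%). Over all distinct skipped exons tested the shares were 2.76% and 12.4% upstream, and 3.32% and 12.6% downstream. The edgeR alternative was not run, since each deposited cell joins the counts of both replicates.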

Other observations

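The mutually exclusive events of other genes whose PSI lay closest to that of TPM1 exon 6 over the 4 libraries, a comparison added after the values were seen, were 3 events of TNC, the gene of the matrix protein tenascin-C, at Euclidean distances of 0.0705, 0.0833 and 0.0902 among 353 events with exons of equal length. The closest had a PSI of 0.889 and 0.894 with RBFOXi and of 0.797 and 0.885 with SCRM, with an unadjusted p-value of 0.0605 in limma. In all 3 the SCRM replicate 1 value was the lowest, as it was at TPM1 exon 6. The 3 events, all of 1 gene, were picked for closeness to those same 4 values. This likeness therefore comes largely from the choice and is not a separate observation.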
